A study of Mus musculus with 12 samples.

Results

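The cold response of subcutaneous white adipose tissue (scWAT) was described in *Jmjd1a* HY/HY mice. The study describes their JMJD1A as unable to remove methyl groups from histones. Of the 12 RNA-seq libraries of the series, the 6 from these mice were compared, 3 after 1 week at 8°C with 3 after 1 week at 30°C, and no gene was selected in advance. All mice were female, 16 weeks of age, caged singly and first acclimated to 30°C for 1 week. The HY allele, made with CRISPR in C57BL/6J eggs, replaces a histidine of the Jumonji domain by tyrosine. The study assayed the loss of activity on a fragment of human JMJD1A with phenylalanine at the matching site. The HY allele is present in every cell of the animal, so that responses of adipocytes cannot be told apart from those of other cells or organs. The mice came from 1 of the lines made. The other 6 libraries, 3 at each temperature, came from wild-type (*Jmjd1a* +/+) mice and serve here to show where the response differed. Each library was made from 1 mouse. The p-values of the main gene test rest on a spread between mice pooled over the 4 groups of both genotypes.

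Mice need little extra heat at 30°C. In the cold, sympathetic nerves release noradrenaline onto fat, and beige adipocytes appear in scWAT. Beige adipocytes hold many mitochondria and small lipid droplets, and they burn fatty acids and glucose to make heat, largely through UCP1, a protein of the inner mitochondrial membrane that lets protons flow back without ATP synthesis. JMJD1A, encoded by *Kdm3a*, removes the methyl groups of H3K9me1 and H3K9me2, of which the second is a mark of silent genes. The question put to these libraries was which part of the cold response of scWAT occurs in mice with the HY allele.

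*Kdm3a* itself is counted on the mutant allele as on the normal one, so it does not check the genotype labels. Its level was 52.7, 46.4 and 37.4 CPM (counts relative to the TMM-scaled library size) in replicates 1, 2 and 3 at 30°C and 45.8, 43.2 and 45.3 CPM at 8°C. These levels overlapped, and the log2 fold change of 8°C against 30°C was -0.02 (SE 0.16, adjusted p = 0.963, edgeR quasi-likelihood test).

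The 6 libraries held 13592629 to 26352081 counts on the sense strand of genes. All 3 libraries at 8°C were below the smallest at 30°C (two-sided exact permutation p = 0.1, the smallest that 3 against 3 allow). *Adipoq*, the adipokine adiponectin that marks adipocytes, was at 1322 to 3790 CPM at 30°C and at 2639 to 3413 CPM at 8°C, so all 6 samples held fat. Replicate 3 at 30°C stood apart from its group. Its Euclidean distance over log2 CPM was 88.1 and 88.4 to the other mice at 30°C and 72.0 to 79.4 to the 3 mice at 8°C. Mammary epithelium lies within this fat pad in females, and its basal keratins *Krt5* and *Krt14* were at 0.936 and 1.51 CPM in that library against 33.0 to 58.9 CPM in the other 5. The 24 mammary markers summed to 2913, 3255 and 1210 CPM at 30°C and to 2265, 2629 and 1717 CPM at 8°C (exact permutation p = 0.7), with the milk protein gene *Wap* at 0 in all 6 libraries and *Csn2* above 0 in 1 of them. In tissue of this kind, fewer cells of a type and less RNA per cell cannot be told apart. The share of counts on mitochondrial DNA was 9.32%, 9.76% and 16.8% at 30°C and 12.9%, 12.2% and 12.4% at 8°C (exact permutation p = 1), again with replicate 3 at 30°C at the extreme. Values without this library stand beside many of the results that they change.

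Cold raised 30 genes and lowered 11 genes of the 16540 tested in *Jmjd1a* HY/HY scWAT, which is 0.181% and 0.0665% of them. The calls took an adjusted p under 0.05 (edgeR quasi-likelihood test, Benjamini-Hochberg over all genes) and a fold above 1.5 or below 0.67. At an unadjusted p under 0.05 there were 2426 genes, of which 1266 were higher and 1160 lower at 8°C (7.65% and 7.01%). DESeq2 called 216 higher and 94 lower (1.31% and 0.568%). When replicate 3 at 30°C was left out, 461 genes were higher and 203 lower (2.72% and 1.2% of 16926), and these included all 30 and all 11. With the replicate number as a block, 128 genes were higher and 32 lower (0.774% and 0.193%), again including all 30 and all 11. The 3 libraries at 8°C lay above all 3 at 30°C for 9.33% of the genes tested and below them for 9% of the genes, and the 30 and the 11 were all among these. The calls rest on a spread estimated from the 12 libraries of both genotypes: fitted to the 6 *Jmjd1a* HY/HY libraries alone, the same test called 0 genes in either direction, with 1842 of 15780 genes at an unadjusted p under 0.05.

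**Figure D1:**
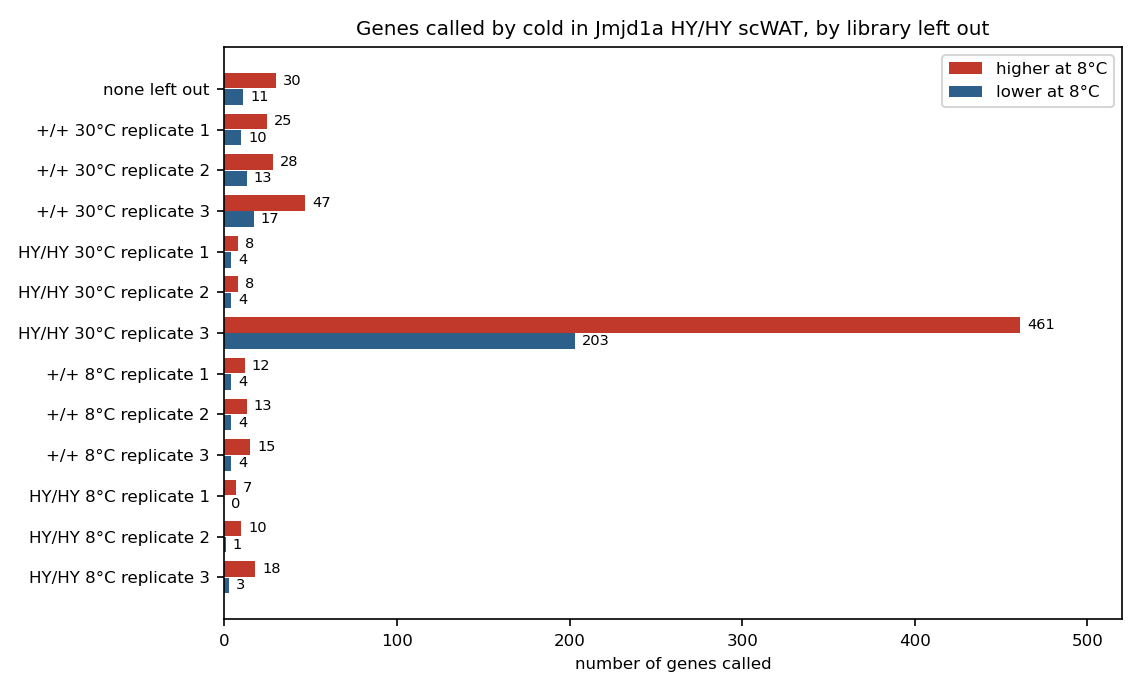
Number of genes called higher (red) or lower (blue) at 8°C in *Jmjd1a* HY/HY scWAT with no library left out and with each of the 12 libraries left out in turn. Leaving out replicate 3 of *Jmjd1a* HY/HY at 30°C gave 461 and 203 genes, against 7 to 47 and 0 to 17 genes for the other libraries.

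The largest rises were those of *Fabp3* and *Ucp1*. *Ucp1* (chr8:83290348-83298456, mm10) was at 0.116, 1.96 and 1.61 CPM at 30°C and at 611, 904 and 212 CPM at 8°C. It was near the floor in all mice at 30°C, where it had 3, 57 and 31 counts, and high in all mice at 8°C. Its log2 fold change was 8.87 (SE 1.0, adjusted p = 0.0042, edgeR), 9.07 without replicate 3 at 30°C and 8.32 to 9.48 over all single libraries left out. *Fabp3* (chr4:130308738-130315463), the fatty acid binding protein of heart muscle, had 2, 6 and 5 counts at 30°C and 1435, 2603 and 360 counts at 8°C. The log2 fold change was 9.02 (SE 0.76, adjusted p = 0.00103), 9.29 without replicate 3 and 8.39 to 9.45 over all single libraries left out. For both genes, replicate 3 at 8°C was the lowest of its group. The processed pseudogene *Fabp3-ps1*, which shares sequence with *Fabp3* so that read pairs between them are not assigned with certainty, had 0, 1 and 0 counts at 30°C and 44, 90 and 18 at 8°C. *Elovl3*, an elongase of very long fatty acids, was at 0.387, 4.82 and 0.520 CPM at 30°C and at 73.6, 123 and 39.0 CPM at 8°C. The groups did not overlap, and the log2 fold change was 5.29 (adjusted p = 0.0194), and 4.89 without replicate 3. Replicate 2 at 30°C was the highest of its group, and without it the log2 fold change of *Elovl3* was 7.44. The highest adjusted p for this gene was 0.0792, without replicate 1 at 8°C.

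Of the fatty acid oxidation list 3 genes rose, and they are given here with *Gk* and *Cox7a1* of the thermogenic list. *Acaa1b* (chr9:119148043-119157093), a thiolase of peroxisomal β-oxidation, was at 28.6, 15.8 and 31.0 CPM at 30°C and at 140, 163 and 114 CPM at 8°C (log2 fold change 2.47, SE 0.28, adjusted p = 0.0042). *Ehhadh* (chr16:21761285-21787834), the peroxisomal enzyme that acts just before the thiolase step, was at 32.9, 27.5 and 50.6 CPM and at 144, 122 and 147 CPM (log2 fold change 1.90, SE 0.21, adjusted p = 0.0042). In each gene the 3 mice at 8°C were close to each other and more than 2 times above every mouse at 30°C. *Slc25a20*, which carries acylcarnitines into mitochondria, was at 55.5, 55.8 and 90.9 CPM and at 219, 210 and 197 CPM (log2 fold change 1.63, SE 0.24, adjusted p = 0.022). *Gk*, glycerol kinase, which returns glycerol to triglyceride synthesis, was at 5.15, 6.89 and 7.07 CPM and at 35.6, 47.3 and 20.5 CPM (log2 fold change 2.44, adjusted p = 0.0042). *Cox7a1*, the heart and muscle isoform of a cytochrome c oxidase subunit, was at 4.69, 6.95 and 13.3 CPM and at 47.5, 59.4 and 22.8 CPM (log2 fold change 2.39, adjusted p = 0.0375). The log2 fold changes of these 5 genes, in the order given, were 2.65, 2.20, 1.91, 2.52 and 2.89 without replicate 3 at 30°C.

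**Figure D2:**
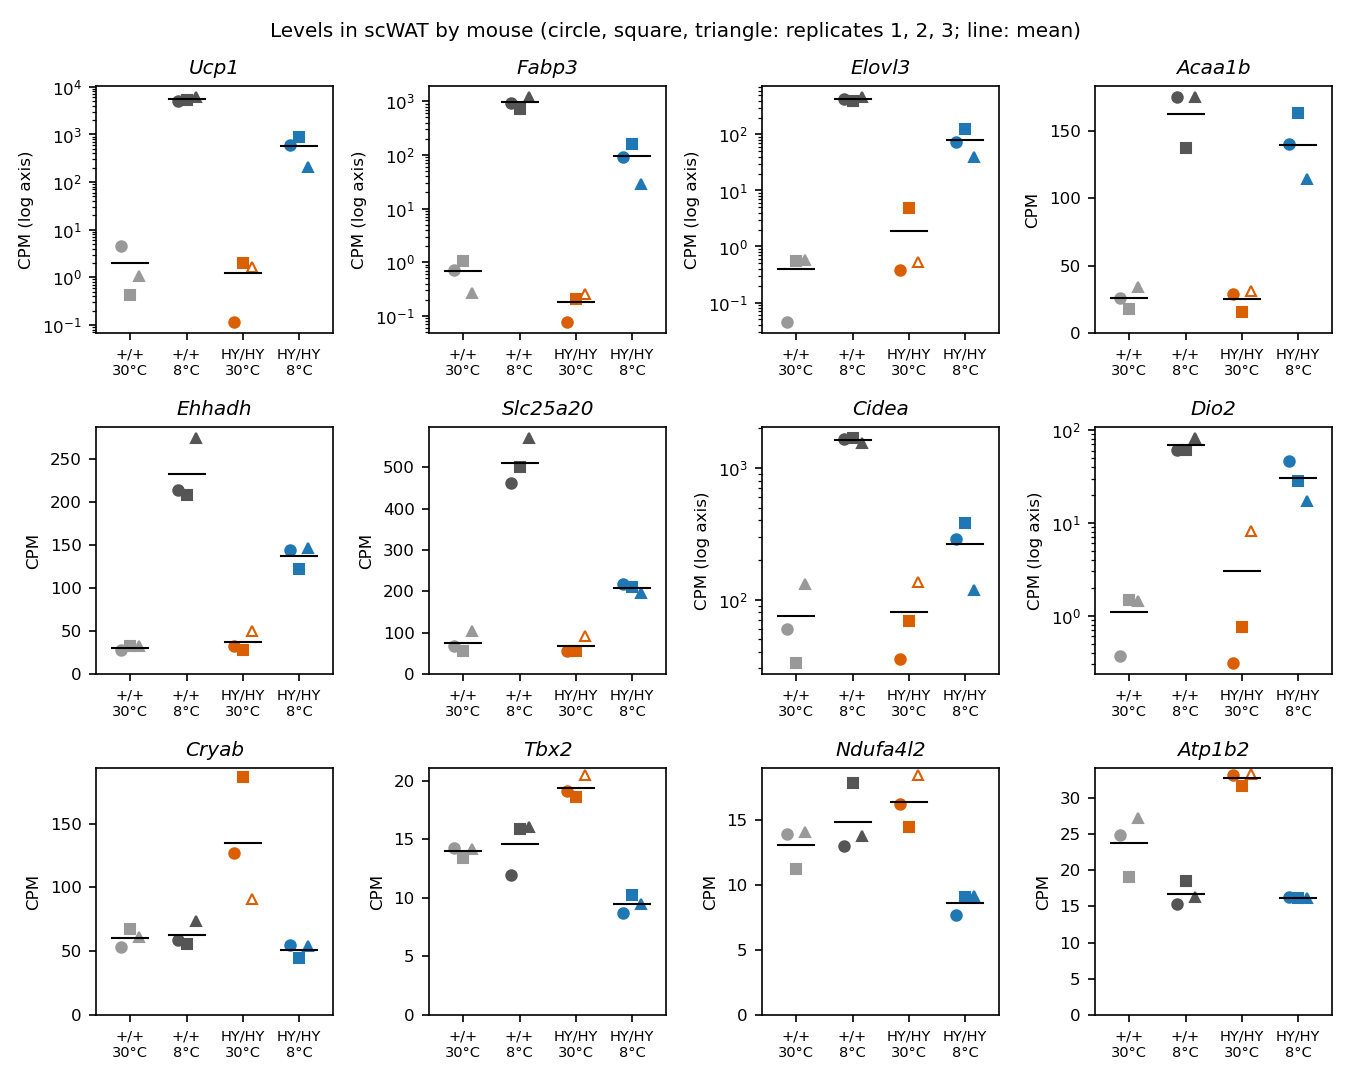
Levels (CPM) of 12 genes in each mouse of the 4 groups, with circles, squares and triangles for replicates 1, 2 and 3 and a line at the group mean; *Ucp1*, *Fabp3*, *Elovl3*, *Cidea* and *Dio2* are on log axes, the others on linear axes from 0. The open triangle is replicate 3 of *Jmjd1a* HY/HY at 30°C, which lies with its group for *Fabp3* and *Ucp1* and above the lowest mouse at 8°C for *Cidea*.

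The stretches of 250 bases before the start of 4 of these genes are shown because the genes rose together, 2 with products in the mitochondrion or cytosol (*Ucp1*, *Fabp3*) and 2 with products in the peroxisome (*Ehhadh*, *Acaa1b*). They were chosen after the values were seen and are RefSeq sequences of GRCm38.p6, printed 5′ to 3′ on the strand of the gene. Capitals mark AGGTCA, one arm of a nuclear receptor element, and TGACG, the core of a cAMP response element, both searched on both strands.
Fabp3, chr4:130308488-130308737, plus strand: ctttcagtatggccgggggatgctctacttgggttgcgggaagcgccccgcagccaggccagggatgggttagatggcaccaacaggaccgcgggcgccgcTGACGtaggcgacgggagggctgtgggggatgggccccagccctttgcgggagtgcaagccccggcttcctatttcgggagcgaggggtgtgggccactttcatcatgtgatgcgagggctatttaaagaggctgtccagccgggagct
Ucp1, chr8:83290098-83290347, plus strand: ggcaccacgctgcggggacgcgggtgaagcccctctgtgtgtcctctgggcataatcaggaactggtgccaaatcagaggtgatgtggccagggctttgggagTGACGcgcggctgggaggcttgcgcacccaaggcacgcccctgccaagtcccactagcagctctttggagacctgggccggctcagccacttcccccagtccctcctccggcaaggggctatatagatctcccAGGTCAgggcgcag
Ehhadh, chr16:21787835-21788084, minus strand: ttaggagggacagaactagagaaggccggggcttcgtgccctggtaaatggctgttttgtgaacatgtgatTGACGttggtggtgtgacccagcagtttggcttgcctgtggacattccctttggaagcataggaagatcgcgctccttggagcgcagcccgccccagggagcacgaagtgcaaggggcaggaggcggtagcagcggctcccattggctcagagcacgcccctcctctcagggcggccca
Acaa1b, chr9:119157094-119157343, minus strand: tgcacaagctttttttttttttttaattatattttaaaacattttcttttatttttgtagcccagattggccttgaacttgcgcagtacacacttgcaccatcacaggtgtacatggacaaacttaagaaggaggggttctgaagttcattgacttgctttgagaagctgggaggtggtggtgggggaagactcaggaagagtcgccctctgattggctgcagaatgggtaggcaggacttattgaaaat

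TGACG began 149 bases before the start of *Fabp3*, 147 bases before that of *Ucp1* and 179 bases before that of *Ehhadh*, and AGGTCA began 14 bases before the start of *Ucp1*. The window of *Acaa1b* held neither. Of the 30 genes that rose, 22 were matched to 28 promoter windows, of which 25% held AGGTCA and 17.9% held TGACG. Among all 32851 windows of the same length, 14.0% held AGGTCA and 17.8% held TGACG. A match of letters is a description of the window only.

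The other rises include genes at low levels. *Slc25a34*, a mitochondrial carrier, was at 0.736, 0.103 and 0.312 CPM at 30°C and at 12.9, 9.88 and 1.79 CPM at 8°C (log2 fold change 4.42, adjusted p = 0.0246, 4.34 without replicate 3 at 30°C, and 5.41 without replicate 1 at 30°C). *Cyp2b10*, a cytochrome P450, had 5, 2 and 1 counts at 30°C and 135, 19 and 54 counts at 8°C (log2 fold change 5.39, adjusted p = 0.0188, 5.15 without replicate 3 at 30°C, but 6.12 without replicate 1 at 30°C and 4.59 without replicate 1 at 8°C). Replicate 3 at 8°C was the lowest for the first gene and replicate 2 for the second. *Pla2g2e*, a secreted phospholipase, was at 0.620, 0.516 and 1.66 CPM and at 4.66, 4.63 and 7.88 CPM (log2 fold change 2.65, adjusted p = 0.0282, and 3.32 without replicate 3 at 30°C). *Pank1*, a pantothenate kinase that starts coenzyme A synthesis, was at 7.25, 14.6 and 13.3 CPM and at 28.1, 42.5 and 29.0 CPM (log2 fold change 1.51, adjusted p = 0.0301). *Slc25a17*, the peroxisomal carrier of coenzyme A, and *Acsf2*, an acyl-CoA synthetase, rose by 0.65 and 0.78 on the log2 scale (adjusted p of 0.0262 and 0.0188). *Pdpr*, the regulatory subunit of pyruvate dehydrogenase phosphatase, was at 1.36, 1.69 and 2.08 CPM and at 4.27, 5.63 and 5.52 CPM (log2 fold change 1.59, adjusted p = 0.022), and *Letm1*, an ion exchanger of the inner mitochondrial membrane, rose by 1.05 on the log2 scale (adjusted p = 0.0246).

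*Clmp*, an adhesion molecule, was at 43.4, 35.9 and 47.2 CPM at 30°C and at 92.5, 106 and 122 CPM at 8°C (log2 fold change 1.34, SE 0.14, adjusted p = 0.0042). *Mapk6*, an atypical MAP kinase, rose by 1.39 on the log2 scale (adjusted p = 0.0367), *Cd320*, the receptor that takes up vitamin B12 with transcobalamin, one of 0.82 (adjusted p = 0.0415) and *Tank*, an adaptor of NF-κB signalling, one of 0.65 (adjusted p = 0.0333). *Loxl1*, which crosslinks elastin, had one of 0.90 (adjusted p = 0.0431), the only call among 33 genes of collagen and matrix, and *Noct*, nocturnin, one of 1.38 (adjusted p = 0.0416). The other 7 were *Gm9696*, *Rnf125*, *Gsdme*, *Hpdl*, *Traf4*, *Enc1* and *Aldh3b2*, with log2 fold changes of 0.94 to 4.18. The largest, that of *Gm9696*, was 5.14 without replicate 3 at 30°C. Over the 30 genes the log2 fold changes ran from 0.65 to 9.02 with a median of 1.73.

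The 11 genes that fell had log2 fold changes of -3.03 to -0.62 with a median of -1.01. *Cryab* (chr9:50745951-50756636), the small heat shock protein αB-crystallin, was at 127, 186 and 90.8 CPM at 30°C and at 54.6, 44.5 and 54.0 CPM at 8°C (log2 fold change -1.40, SE 0.22, adjusted p = 0.0273). *Tbx2* (chr11:85832615-85841948), a T-box transcription factor, was at 19.1, 18.6 and 20.5 CPM and at 8.68, 10.3 and 9.50 CPM (log2 fold change -1.03, SE 0.13, adjusted p = 0.0107). *Atp1b2*, a subunit of the sodium pump, was at 33.2, 31.7 and 33.2 CPM and at 16.3, 16.1 and 16.2 CPM (log2 fold change -1.01, adjusted p = 0.0107). The mice of each temperature lay close together for the last pair, with no overlap in any of the 3 genes. *Ndufa4l2*, a relative of a cytochrome c oxidase subunit that is known to respond to hypoxia, was at 16.2, 14.5 and 18.5 CPM and at 7.71, 9.13 and 9.17 CPM (log2 fold change -0.92, adjusted p = 0.0431). *Ly6h* changed by -1.28 on the log2 scale (adjusted p = 0.0431), *H2-Q4*, an MHC class I gene with close relatives whose reads may be shared, one of -0.77 (adjusted p = 0.0238), and *Mapk12*, a p38 kinase, one of -0.67 (adjusted p = 0.0173). The others were *Lypd6b*, with under 2 CPM in every library, the non-coding transcripts *4930581F22Rik* and *Snhg20*, and 1 gene without a symbol. When replicate 3 at 30°C was left out, *Cryab*, *Tbx2*, *Atp1b2* and *Ndufa4l2* had log2 fold changes of -1.62, -0.99, -1.0 and -0.82.

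Of the 30 genes that rose, 7 kept an adjusted p under 0.05 whichever of the 12 libraries was left out: *Fabp3*, *Fabp3-ps1*, *Ucp1*, *Acaa1b*, *Ehhadh*, *Gk* and *Clmp*. Of the 11 genes that fell, 0 did, since leaving out replicate 1 at 8°C left 0 of the edgeR calls in that direction, with 948 genes lower at an unadjusted p under 0.05. Their direction was the same in every fit.

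Thermogenic genes, a list of 31 that took in the genes the study discusses and was written with results of these libraries known, were the list with the largest median. Of the 31, 7 rose and 0 fell in *Jmjd1a* HY/HY scWAT: *Ucp1*, *Fabp3*, *Elovl3*, *Cyp2b10*, *Gk*, *Cox7a1* and *Slc25a20*. The median log2 fold change was 1.63, against -0.01 over all genes tested, and 27 were positive. Without replicate 3 at 30°C, 18 rose and the median was 1.69, and with the replicate block 12 rose. Of all genes tested, 0.181% rose in the first of these fits, 2.72% without replicate 3 and 0.774% with the block. The summed level of the 31 genes was 1683, 2646 and 2409 CPM at 30°C and 4299, 5296 and 3393 CPM at 8°C, so the groups did not overlap and replicate 3 was the lowest at 8°C. In wild-type scWAT the same sum was 1202 to 1904 CPM at 30°C and 16229 to 18279 CPM at 8°C.

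The other 24 thermogenic genes did not pass the test. *Fgf21* (log2 fold change -1.88), *Elovl6* (-0.59), *Impdh1* (-0.42) and *Acot2* (-0.10) were negative. Without replicate 3 at 30°C they were at -2.26, -0.87, -0.43 and -0.12. For *Impdh1* all mice at 8°C were below all at 30°C. *Slc27a2* (3.64), *Cpt1b* (3.01), *Bmp8b* (1.06) and *Slc36a2* (0.94) were positive. The 5 genes that follow were chosen after their values were seen because they were higher in the mean. *Dio2*, which makes active thyroid hormone, was at 0.310, 0.757 and 8.11 CPM at 30°C and at 45.9, 27.9 and 17.3 CPM at 8°C (log2 fold change 3.41, SE 0.82, adjusted p = 0.113). Replicate 3 at 30°C was 10 times or more above the other mice of its group, and without it the log2 fold change was 5.79 (adjusted p = 0.0031). *Cidea*, a lipid droplet protein of brown and beige fat, was at 35.5, 68.8 and 136 CPM and at 290, 379 and 118 CPM (log2 fold change 1.72, adjusted p = 0.205). Replicate 3 at 8°C was below replicate 3 at 30°C, and without the latter the log2 fold change was 2.33 (adjusted p = 0.0483). *Cox8b*, a muscle-type cytochrome c oxidase subunit, was at 19.8, 17.7 and 72.0 CPM and at 199, 172 and 116 CPM (log2 fold change 2.16, adjusted p = 0.104, and 3.12 with adjusted p = 0.00369 without replicate 3 at 30°C, and adjusted p = 0.0447 with the block). *Ppara*, a receptor that drives fatty acid oxidation genes, was at 0.542, 0.482 and 1.92 CPM and at 2.07, 3.69 and 1.79 CPM (log2 fold change 1.43, adjusted p = 0.231, and 2.30 with adjusted p = 0.0193 without replicate 3). *Pdk4*, which inhibits pyruvate dehydrogenase, was at 28.6, 18.8 and 57.1 CPM and at 157, 190 and 78.2 CPM (log2 fold change 2.03, adjusted p = 0.0877, 2.58 with adjusted p = 0.0121 without replicate 3, and adjusted p = 0.0493 with the block).

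Fatty acid oxidation was the other list with several calls. Of 27 genes, 3 rose (*Acaa1b*, *Ehhadh* and *Slc25a20*) and 0 fell, with a median log2 fold change of 0.78 and 25 positive. When replicate 3 at 30°C was left out, 17 rose and the median was 1.03. With the replicate block 11 rose. These 3 counts stand beside the same 0.181%, 2.72% and 0.774% of all genes. The summed level was 5013, 4791 and 8669 CPM at 30°C and 10764, 11222 and 12714 CPM at 8°C. All mice at 8°C were above all at 30°C, with replicate 3 at 30°C between the other mice of its group and the cold mice. *Acsl1*, the main acyl-CoA synthetase of fat, was at 1205, 1118 and 2382 CPM and at 2807, 3236 and 4393 CPM (log2 fold change 1.15, adjusted p = 0.164, 1.59 with adjusted p = 0.0196 without replicate 3, and adjusted p = 0.0182 with the block). *Cpt2*, which frees acyl-CoA inside mitochondria, was at 89.1, 97.1 and 252 CPM and at 293, 263 and 352 CPM (log2 fold change 1.05, adjusted p = 0.217, 1.70 with adjusted p = 0.00645 without replicate 3, and adjusted p = 0.0497 with the block). *Etfdh*, which passes electrons from acyl-CoA dehydrogenases to the respiratory chain, was at 82.8, 73.4 and 137 CPM and at 205, 219 and 232 CPM (log2 fold change 1.16, adjusted p = 0.0758, 1.49 with adjusted p = 0.00525 without replicate 3, and adjusted p = 0.0127 with the block). *Acsl1* and *Etfdh*, like the other list members named from the fit without replicate 3, were picked after their values were seen.

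The respiratory chain changed less. Of 80 nuclear genes for subunits of complexes I to V, 1 rose (*Cox7a1*) and 0 fell, while 74 had a positive log2 fold change, with a median of 0.37. At an unadjusted p under 0.05, 34 were higher and 1 lower, and DESeq2 called 4 higher, against 7.65%, 7.01% and 1.31% of all genes. Without replicate 3 at 30°C, 15 rose and the median was 0.50, and with the block 2 rose. Of all genes, 0.181% rose by edgeR with all libraries, 2.72% without replicate 3 and 0.774% with the block. By complex the medians were 0.37 for 35 genes of complex I, 0.41 for 4 of complex II, 0.57 for 9 of complex III, 0.38 for 14 of complex IV and 0.31 for 18 of complex V. Without replicate 3 at 30°C they were 0.49, 0.63, 0.72, 0.57 and 0.43 in the same order. Without replicate 1 at 30°C they were 0.29, 0.26, 0.40, 0.27 and 0.21. The summed level of complex III was 1854, 2269 and 2855 CPM at 30°C and 3291, 3451 and 3167 CPM at 8°C, with no overlap. That of complex IV was 3308, 3509 and 4864 CPM and 5093, 5476 and 4829 CPM, where replicate 3 at 30°C lay above replicate 3 at 8°C.

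One subunit of each complex is given here. *Ndufs8* of complex I was at 77.9, 99.7 and 102 CPM at 30°C and at 125, 139 and 117 CPM at 8°C (log2 fold change 0.45, adjusted p = 0.197). *Sdhb* of complex II was at 190, 203 and 275 CPM and at 302, 323 and 299 CPM (log2 fold change 0.47, adjusted p = 0.26, and 0.65 with adjusted p = 0.0498 without replicate 3). *Cyc1* of complex III was at 184, 290 and 319 CPM and at 365, 377 and 336 CPM (log2 fold change 0.44, adjusted p = 0.33). All 3 mice at 8°C were above all at 30°C for these genes, by amounts that did not pass the test. *Cox5a* of complex IV was at 169, 235 and 270 CPM and at 238, 310 and 215 CPM, where the groups overlapped (log2 fold change 0.18, adjusted p = 0.718). *Atp5j2* of complex V was at 191, 190 and 269 CPM and at 288, 303 and 251 CPM, again with an overlap (log2 fold change 0.37, adjusted p = 0.358). When replicate 3 at 30°C was left out, the log2 fold changes of *Ndufs8*, *Cyc1*, *Cox5a* and *Atp5j2* were 0.52, 0.60, 0.34 and 0.56, with adjusted p of 0.0822, 0.103, 0.366 and 0.0759.

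The tricarboxylic acid cycle and pyruvate dehydrogenase had 0 calls in either direction among 25 genes by edgeR, with 16 higher at an unadjusted p under 0.05 and 6 called higher by DESeq2, against 7.65% and 1.31% of all genes. The median log2 fold change was 0.56 and 24 were positive. Without replicate 3 at 30°C, 9 rose, and with the block 5 rose, against 2.72% and 0.774% of all genes. *Suclg1*, a subunit of succinyl-CoA ligase, was at 90.9, 111 and 136 CPM at 30°C and at 195, 223 and 201 CPM at 8°C (log2 fold change 0.88, adjusted p = 0.0656, 0.0119 without replicate 3, 0.0309 with the block). *Idh3a*, of isocitrate dehydrogenase, was at 161, 295 and 338 CPM and at 481, 567 and 539 CPM (log2 fold change 1.00, adjusted p = 0.107, 0.0229 without replicate 3, 0.0315 with the block). The 13 proteins encoded by mitochondrial DNA also had 0 calls by edgeR and by DESeq2, with a median of 0.22. Of the 13, 2 were lower at an unadjusted p under 0.05, against 7.01% of all genes. Replicate 3 at 30°C had the highest sum of them, 181900 CPM, against 79271 and 87830 CPM in the other mice at 30°C and 118680 to 135502 CPM at 8°C. Without it the median was 0.64, and 1 gene, *mt-Nd2*, was called higher, against 2.72% of all genes. When replicate 1 at 30°C was left out instead, the median was -0.04. *mt-Atp6* and *mt-Atp8* overlap each other and have near-identical nuclear copies, so their counts are uncertain.

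Mitochondrial ribosomal proteins, 76 genes, had 0 calls by edgeR and 1 higher by DESeq2, with 21 higher and 2 lower at an unadjusted p under 0.05 and a median of 0.21, and 6 rose without replicate 3 at 30°C. Of all genes, 1.31% were called higher by DESeq2, 7.65% were higher at an unadjusted p under 0.05 and 2.72% rose without replicate 3. *Mrps2* was at 22.3, 31.6 and 31.4 CPM and at 46.7, 45.1 and 47.5 CPM (log2 fold change 0.71, adjusted p = 0.0508, 0.0175 without replicate 3 and 0.0246 with the block). Cytosolic ribosomal proteins, 85 genes, were at the other side, with a median of -0.39, 4 positive values and 0 calls by edgeR. At an unadjusted p under 0.05, 60 were lower and 1 higher, DESeq2 called 2 lower and 1 higher, and without replicate 3 at 30°C, 15 fell. Of all genes, 7.01% were lower at an unadjusted p under 0.05 and 1.2% fell without replicate 3. *Rpl35a* was at 419, 438 and 319 CPM and at 294, 279 and 249 CPM (log2 fold change -0.52, adjusted p = 0.148, -0.64 with adjusted p = 0.0224 without replicate 3). With library totals in place of TMM the median over all genes was -0.15, that of cytosolic ribosomal proteins -0.53 and that of mitochondrial ribosomal proteins 0.09.

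**Figure D3:**
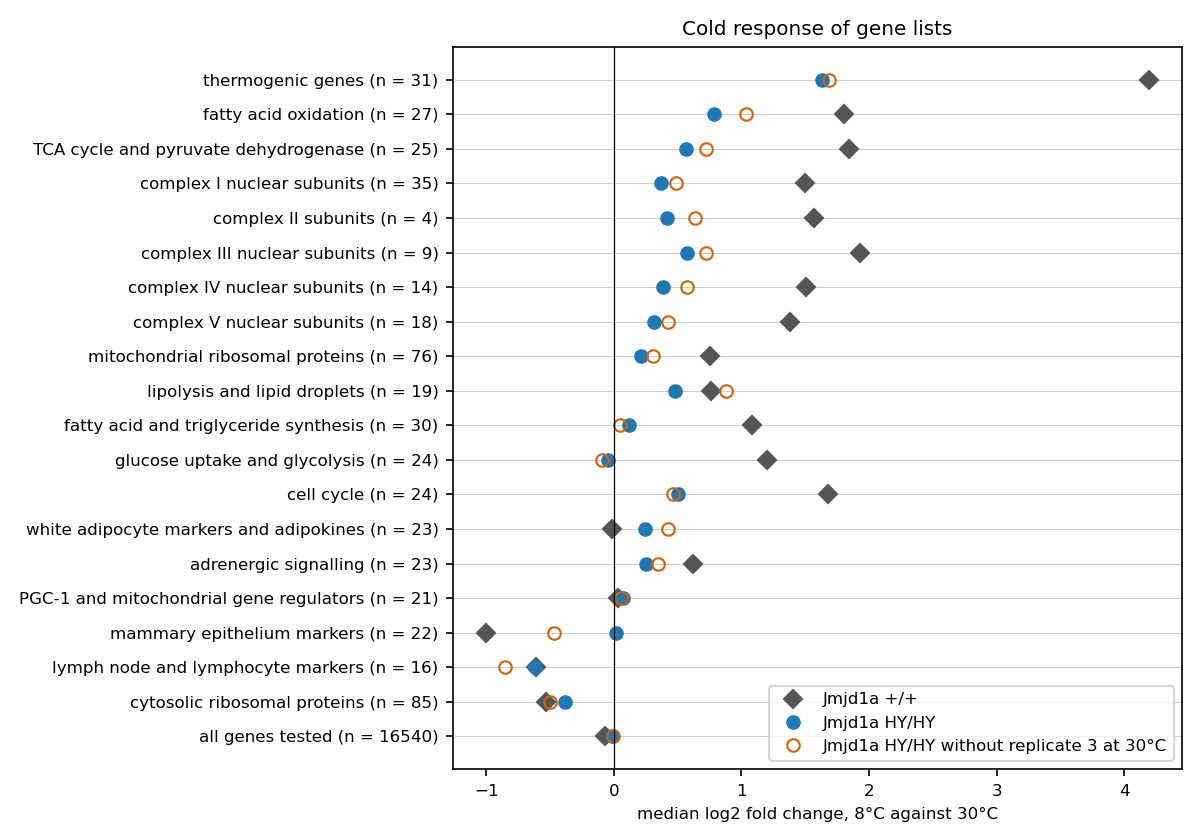
Median log2 fold change of 8°C against 30°C for 19 gene lists and for all genes tested, with the number of genes in brackets. Blue circles are *Jmjd1a* HY/HY, open orange circles the same without replicate 3 at 30°C, and grey diamonds *Jmjd1a* +/+. The diamonds lie to the right of both circles for thermogenic, fatty acid oxidation, tricarboxylic acid cycle and respiratory chain genes.

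Lipolysis and lipid droplets had 0 of 19 called by edgeR, 8 higher at an unadjusted p under 0.05 and 2 called higher by DESeq2. Without replicate 3 at 30°C, 5 rose. The matching shares of all genes were 7.65%, 1.31% and 2.72%. The median of the list was 0.48, and 0.88 without replicate 3. *Abhd5*, the coactivator of the lipase ATGL, was at 72.0, 79.8 and 132 CPM and at 220, 158 and 224 CPM (log2 fold change 1.08, adjusted p = 0.0877, 0.00606 without replicate 3 and 0.0276 with the block). *Plin5*, which ties droplets to mitochondria, was at 5.27, 11.5 and 8.32 CPM and at 29.2, 33.6 and 18.3 CPM (log2 fold change 1.69, adjusted p = 0.0877, 0.0451 without replicate 3). In both genes the groups did not overlap. Fatty acid and triglyceride synthesis had 2 of 30 genes called against 0.181% of all genes, *Elovl3* and *Gk*, and a median of 0.12, which was -0.03 with library totals. Without replicate 3, 4 rose and the median was 0.05. *Elovl6*, a fatty acid elongase of lipogenesis, was at 619, 1255 and 433 CPM and at 407, 723 and 403 CPM, where the groups overlapped (log2 fold change -0.59, adjusted p = 0.508, and -0.87 with adjusted p = 0.178 without replicate 3). Glucose uptake and glycolysis had 0 of 24 genes called by edgeR, 3 higher at an unadjusted p under 0.05, 2 called higher by DESeq2 and a median of -0.04, and 3 rose without replicate 3, against 7.65%, 1.31% and 2.72% of all genes. *Pgam1*, a glycolytic mutase, was at 49.9, 68.3 and 72.8 CPM and at 95.1, 108 and 119 CPM (log2 fold change 0.75, adjusted p = 0.0877, 0.0249 without replicate 3 and 0.0145 with the block).

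Regulators of mitochondrial genes and of beige fate had medians near that of all genes. Of 21 PGC-1 and mitochondrial gene regulators, 0 were called by edgeR or DESeq2, with 4 higher at an unadjusted p under 0.05 against 7.65% of all genes and a median of 0.07, which was -0.07 with library totals. *Ppargc1a*, the cold-induced coactivator PGC-1α, was at 4.61, 7.23 and 10.2 CPM at 30°C and at 8.48, 14.6 and 8.44 CPM at 8°C (log2 fold change 0.53, SE 0.34, adjusted p = 0.5, and 0.83 with adjusted p = 0.184 without replicate 3). *Ppargc1b*, its relative, was at 5.15, 4.03 and 4.31 CPM and at 5.57, 7.63 and 4.63 CPM (log2 fold change 0.41, adjusted p = 0.515). The log2 fold change of *Ppargc1b* was 0.38 (adjusted p = 0.494) without replicate 3. *Esrra*, a nuclear receptor that works with them, was at 37.3, 65.7 and 78.0 CPM and at 68.3, 73.7 and 82.3 CPM (log2 fold change 0.31, adjusted p = 0.523, and 0.54 with adjusted p = 0.139 without replicate 3). *Gabpa*, a factor of respiratory chain promoters, was at 23.4, 24.6 and 28.5 CPM and at 29.6, 38.8 and 32.2 CPM (log2 fold change 0.40, adjusted p = 0.165, and 0.49 with adjusted p = 0.0438 without replicate 3). The groups overlapped for the first 3 of these 4 genes. Of 21 beige and brown fate regulators, 0 were called by edgeR or DESeq2, 10 were positive, and the median was -0.02, or 0.15 without replicate 3. The member lower at an unadjusted p under 0.05 was *Cited1*, a transcriptional cofactor used as a beige marker, at 36.0, 87.1 and 61.1 CPM and at 23.2, 19.1 and 35.6 CPM, with no overlap (log2 fold change -1.24, adjusted p = 0.236). For *Tbx1*, another such marker, it was -0.85 (adjusted p = 0.492), and -0.43 without replicate 3 at 30°C. In adrenergic signalling 0 of 23 genes were called by edgeR, 5 were higher at an unadjusted p under 0.05, DESeq2 called 1 higher, and 3 rose without replicate 3 at 30°C, against 7.65%, 1.31% and 2.72% of all genes. One of them, *Adcy3*, an adenylyl cyclase, was at 32.2, 28.4 and 43.3 CPM and at 92.7, 79.8 and 58.9 CPM (log2 fold change 1.16, adjusted p = 0.0758, 0.0189 without replicate 3 and 0.0309 with the block).

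The wild-type mice show how much of the usual response these values cover. In *Jmjd1a* +/+ scWAT 1707 genes rose and 1147 fell with cold (10.3% and 6.93% of those tested) by the same test. Of the 30 genes that rose in *Jmjd1a* HY/HY scWAT, 26 also rose in wild-type scWAT, which is 86.7% of the 30 and 1.52% of the 1707. The other 4 were *Clmp*, *Mapk6*, *Cd320* and *Tank*, for which the test of the difference between genotypes made no call (adjusted p of 0.0603, 0.129, 0.169 and 0.794). Of the 11 genes that fell, 5 also fell in wild-type scWAT, which is 45.5% of the 11 and 0.436% of the 1147. The medians of these 1707 genes were 1.19 on the log2 scale with JMJD1A intact and 0.34 in *Jmjd1a* HY/HY scWAT, and 1462 (85.6%) had the same sign in both. The 1147 genes had medians of -0.97 and -0.36, and 1032 (90.0%) had the same sign. Over all genes tested, 69.3% had the same sign. The genes were chosen on the wild-type values, so their wild-type medians are a description. When replicate 3 at 30°C was left out, the *Jmjd1a* HY/HY medians were 0.45 and -0.48, and 297 of the 1707 and 106 of the 1147 genes were also called there.

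The cold responses themselves differed for 370 genes at an adjusted p under 0.05. For 342 of them the difference, *Jmjd1a* HY/HY minus *Jmjd1a* +/+, was negative and for 28 positive (2.07% and 0.169% of those tested). Without replicate 3 of *Jmjd1a* HY/HY at 30°C the numbers were 256 and 40, and 246 genes were in both sets. The number rests on single libraries: leaving out each other library in turn gave 67 (replicate 1 of *Jmjd1a* HY/HY at 8°C) to 652 (replicate 1 of *Jmjd1a* HY/HY at 30°C) differences.

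The difference was called for many respiratory chain genes. Of the 80 nuclear subunit genes, 47 had a called negative difference and 0 a positive one, against 2.07% of all genes, and 38 had one without replicate 3 at 30°C. In wild-type scWAT 73 of the 80 rose, against 10.3% of all genes. Their median was 1.5 there and 0.37 in *Jmjd1a* HY/HY scWAT. The difference was -1.54 for *Ndufs8* (SE 0.20, adjusted p = 0.00787), -1.43 for *Sdhb* (adjusted p = 0.017), -1.73 for *Cyc1* (adjusted p = 0.0132), -1.97 for *Cox5a* (adjusted p = 0.0113) and -1.29 for *Atp5j2* (adjusted p = 0.0275). Without replicate 3 these 5 differences had adjusted p of 0.0142, 0.0205, 0.0187, 0.0148 and 0.0352. In the tricarboxylic acid cycle 13 of 25 genes had a called negative difference, and 10 without replicate 3. Among the 13 was *Suclg1* with -1.92 (adjusted p = 0.00787). In glycolysis 10 of 24 genes had one, and 11 without replicate 3. In mitochondrial ribosomal proteins 18 of 76 had one, which was 9 without replicate 3, where 1.51% of all genes had one. *Ppargc1a* differed by -2.19 (adjusted p = 0.039, but 0.0669 without replicate 3).

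Among thermogenic genes the difference was called for 13 of 31, all negative, against 2.07% of all genes. It was not called for *Fabp3* and *Ucp1*, which rose most. The wild-type response of *Ucp1* was 11.41 on the log2 scale against 8.87 with the HY allele, a difference of -2.55 (adjusted p = 0.321, and 0.433 without replicate 3). Over all single libraries left out the *Ucp1* difference ran from -4.03 to -1.94. For *Fabp3* the difference was -1.36 (adjusted p = 0.639), and -1.99 to -0.93 over all single libraries left out. Both genes had few counts at 30°C, which leaves their fold changes imprecise. On the level scale, *Ucp1* was at 5048 to 6055 CPM in wild-type mice at 8°C, above all 3 *Jmjd1a* HY/HY mice at 8°C. *Elovl3* differed by -4.78 (adjusted p = 0.0553, 0.0394 without replicate 3 at 30°C), but by -2.62 (adjusted p = 0.237) without replicate 2 at 30°C. *Gk* differed by -2.41 (adjusted p = 0.0133), *Cox7a1* by -3.78 (adjusted p = 0.0113), *Otop1*, a proton channel of thermogenic fat, by -3.68 (adjusted p = 0.0146) and *Kng2*, a kininogen, by -4.97 (adjusted p = 0.0113).

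Of the 27 fatty acid oxidation genes, 7 had a called negative difference and 0 a positive one, and 7 had one without replicate 3 at 30°C, against 2.07% and 1.51% of all genes. They were *Acsl5*, *Acaa2*, *Hadha*, *Acot2*, *Acadvl*, *Acsf3* and *Hadhb* in the fit with all libraries, with differences of -2.33 to -1.16. The median difference of the list was -1.05, and -0.73 without replicate 3. For the 3 members that rose in *Jmjd1a* HY/HY scWAT the difference was not called. It was -0.17 for *Acaa1b* (SE 0.37, adjusted p = 0.866), -1.02 for *Ehhadh* (SE 0.28, adjusted p = 0.0941) and -1.13 for *Slc25a20* (SE 0.34, adjusted p = 0.12).

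**Figure D4:**
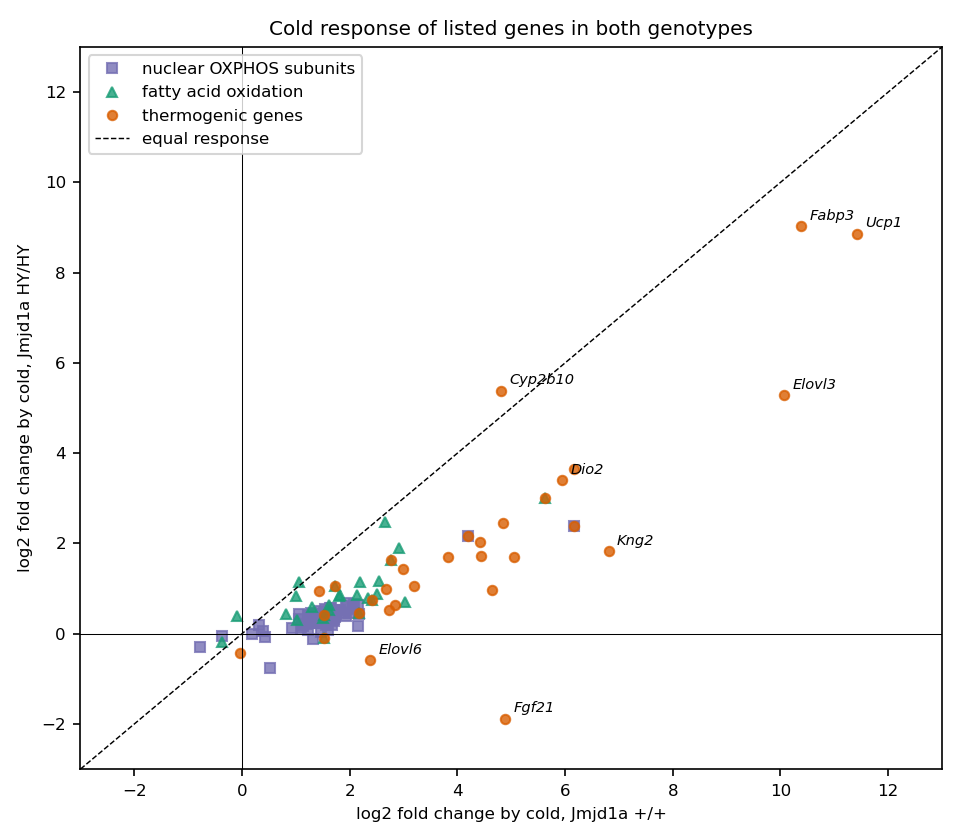
Log2 fold change of 8°C against 30°C in *Jmjd1a* HY/HY (vertical axis) and *Jmjd1a* +/+ scWAT (horizontal axis) for nuclear respiratory chain subunits (squares), fatty acid oxidation genes (triangles) and thermogenic genes (circles), with a dashed line of equal response. Most points lie below the line; *Cyp2b10*, with 5.39 against 4.82, lies just above it.

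Of the genes that fell in *Jmjd1a* HY/HY scWAT, 3 differed from wild-type. The wild-type log2 fold change of *Cryab* was 0.06, and the difference was -1.46 (SE 0.31, adjusted p = 0.0356, and 0.0142 without replicate 3 at 30°C). *Tbx2* had 0.07 and a difference of -1.10 (SE 0.19, adjusted p = 0.0146, and 0.0257 without replicate 3). *Ndufa4l2* had 0.18 and a difference of -1.10 (adjusted p = 0.0312, but 0.0518 without replicate 3). For *Cryab* and *Tbx2* the mice at 8°C of the mutant were near or below the wild-type mice, while the mutant mice at 30°C were above all wild-type mice of either temperature. *Cryab* was at 53.2, 67.0 and 60.9 CPM in wild-type mice at 30°C and at 59.1, 55.4 and 73.9 CPM at 8°C.

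Among genes called without it, replicate 3 at 30°C often lay between the other mice at 30°C and those at 8°C, or beyond. On a scale where 0 is the mean log2 CPM of the other mice at 30°C and 1 that of the mice at 8°C, its median position was 0.71 over 460 genes called higher without it and 0.77 over 202 called lower. It was nearer to the cold mice for 360 (78.3%) of the former and 147 (72.8%) of the latter. These genes were chosen on the other 5 libraries, and that choice itself sets 0 and 1 far apart. By list, the median position over called members was 0.67 for fatty acid oxidation, 0.63 for respiratory chain subunits and 0.40 for thermogenic genes. The position was 0.07 for *Fabp3* and 0.14 for *Ucp1*. These genes had the largest rises in the fit that included this mouse, a choice that itself favours a low position. The position was 0.92 for *Prkar2b*, the regulatory subunit of protein kinase A in fat, which was at 233, 222 and 676 CPM at 30°C and at 589, 721 and 968 CPM at 8°C. Why this mouse lay where it did was not tested.

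**Figure D5:**
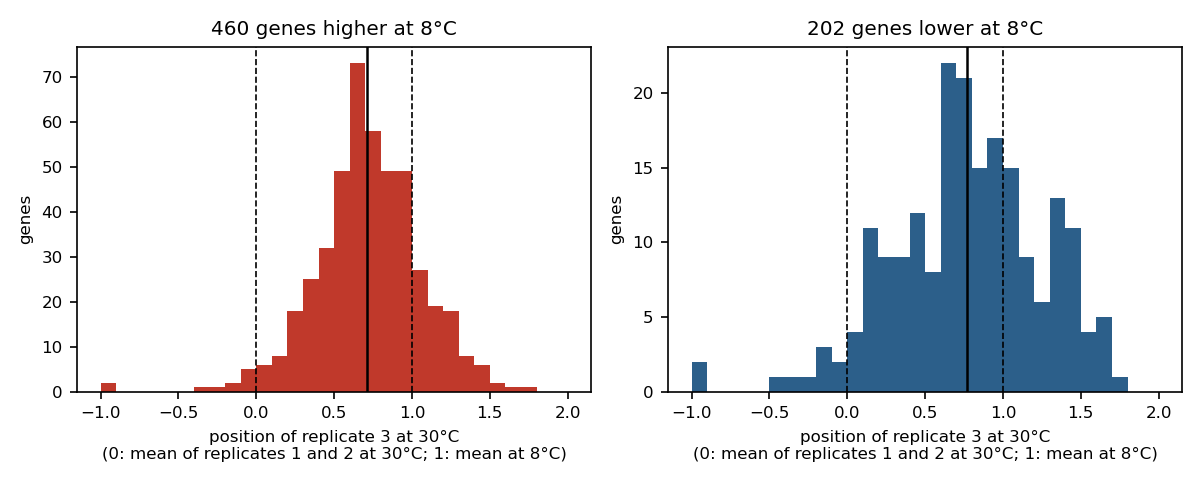
Position of replicate 3 of *Jmjd1a* HY/HY at 30°C for 460 genes called higher and 202 called lower at 8°C in the fit without it, where 0 is the mean of the other mice at 30°C and 1 the mean at 8°C (dashed lines). The solid lines are the medians of 0.71 and 0.77, and 3 values below -1 are drawn at -1.

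Markers of other cells were looked at in the same way. Of 22 mammary markers tested, 0 were called by edgeR and 1 was called higher by DESeq2, with 1 higher and 1 lower at an unadjusted p under 0.05 and a median of 0.01. The matching shares of all genes were 1.31%, 7.65% and 7.01%. Without replicate 3 at 30°C, 4 fell (*Krt7*, *Cldn4*, *Cldn7* and *Spint2*), 1 rose (*Csn3*, a casein) and the median was -0.47. Of all genes, 1.2% fell and 2.72% rose in that fit. In wild-type scWAT 8 mammary markers fell, against 6.93% of all genes, with a median of -1.0. The part of these markers in the other results was not tested. Lymph node and lymphocyte markers summed to 397, 91.7 and 263 CPM at 30°C and to 255, 80.2 and 246 CPM at 8°C, high in replicates 1 and 3 and low in replicate 2 at both temperatures. Their median log2 fold change was -0.62 with 1 of 16 positive, and -0.85 with 0 of 16 positive without replicate 3 at 30°C. The direction rests on single libraries, since the median was 0.07 without replicate 1 at 30°C. Of the 16, 0 were called by edgeR or DESeq2, and 1 was lower at an unadjusted p under 0.05, against 7.01% of all genes. White adipocyte markers had 0 of 23 called by edgeR, with 1 higher and 1 lower by DESeq2 and 1 higher and 2 lower at an unadjusted p under 0.05. In the same order, these stand against 1.31%, 0.568%, 7.65% and 7.01% of all genes. The median of these white adipocyte markers was 0.25, and 0.02 without replicate 2 at 30°C. Without replicate 3 at 30°C it was 0.42 and 1 rose, against 2.72% of all genes. Cell cycle genes had 0 of 24 called by edgeR and by DESeq2, with 4 higher at an unadjusted p under 0.05 against 7.65% of all genes. Their median was 0.50, and 0.14 without replicate 2 at 8°C. In wild-type scWAT the median was 1.68 and 20 rose, against 10.3% of all genes. Of the 24 cell cycle genes 1 had a called difference, and 0 without replicate 3.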

How the data were processed

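RNA was taken from snap-frozen scWAT of 12 mice, and the libraries (TruSeq, paired-end, Illumina HiSeq) were trimmed with fastp and aligned with STAR to mm10 with GENCODE M25 genes by the authors (tool versions are not given in the sources used here). The authors deposited raw STAR gene counts, without normalization, for both strands and for each strand. Pairs that map to several places are not counted, which lowers genes with near-identical copies. The sense-strand counts were used, since they held 95.5% to 96.2% of stranded pairs. Rows that name no gene were left out (in the *Jmjd1a* HY/HY libraries 25.1% to 28.8% unaligned, 26.7% to 31.8% at several places, 2.04% to 2.90% outside genes, 0.93% to 1.1% ambiguous). Of 55401 gene identifiers, 29944 had a symbol of their own.

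The 4 groups of 3 libraries were fitted together with edgeR 4.0.16 (R 4.3.3, limma 3.58.1; TMM, filterByExpr, quasi-likelihood test, 8 residual degrees of freedom). Genes were called at a Benjamini-Hochberg adjusted p under 0.05 and a fold above 1.5 or below 0.67, and the difference between genotypes at an adjusted p under 0.05 alone. The common biological coefficient of variation was 20.7%. DESeq2 1.42.0 and the other settings of the closing section were tried as alternatives. The scripts were tested on simulated data.

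Replicate numbers are shared between the groups. Deviations from the group means of same-numbered *Jmjd1a* HY/HY mice at the 2 temperatures correlated at 0.112, 0.199 and 0.303 over genes (wild-type 0.139, -0.044 and 0.131). Those of differently numbered *Jmjd1a* HY/HY mice correlated at -0.232 to 0.0857. The replicate number was therefore tried as a block, with 1 effect per number shared by all 4 groups. These correlations do not establish that mice were paired, and the labels state no shared litter or day. Values with the block are an alternative chosen on these data.

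Genes were named from the 15 largest rises and falls among called genes averaging 10 or more counts, with a symbol of their own and no overlap, the thermogenic list, *Kdm3a* and 9 regulators and subunits, up to 6 called members of each other list (or the 2 with the lowest p), and the 5 largest differences of each sign. Not every gene that these rules picked is printed. Other genes were named after their values were seen. The comparison, these rules and the 37 gene lists were chosen with earlier results of these data known. FPKM values and fold changes of the study were not used here.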

Additional observations from a re-analysis of the deposited data

Results flagged for a closer look

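The cold response differed between *Jmjd1a* HY/HY and *Jmjd1a* +/+ scWAT for 370 genes by the edgeR test of the difference, and the genes named by the rules that are among them follow, with the difference as log2 fold change in *Jmjd1a* HY/HY minus that in *Jmjd1a* +/+. Of the 44 genes, 14 kept the call whichever library was left out. Without replicate 3 of *Jmjd1a* HY/HY at 30°C, 8 lost it: *Ndufa4l2*, *Ppargc1a*, *Gabpa*, *Uqcrq*, *Mrps23*, *Acot12*, *Rpl31-ps13* and *Cdhr1*, with adjusted p of 0.0518 to 0.0844. Groups of 3 mice were not tested for single outlying samples.

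Among genes that rose in both genotypes, the difference was -2.41 for *Gk*, -3.78 for *Cox7a1*, -2.30 for *Pank1*, -1.61 for *Letm1* and -0.78 for *Acsf2*. Among genes that fell in *Jmjd1a* HY/HY scWAT it was -1.46 for *Cryab*, -1.10 for *Tbx2* and -1.10 for *Ndufa4l2*. Among other thermogenic genes it was -3.68 for *Otop1*, -3.35 for *Acot11*, -4.97 for *Kng2*, -2.21 for *Letmd1*, -1.62 for *Acot2*, -1.71 for *Acsl5*, -1.68 for *Hadhb*, -1.67 for *Idh3a*, -2.97 for *Elovl6* and -2.19 for *Ppargc1a*. *Fgf21*, a hormone of fasting and cold, differed by -6.77 on few counts, which were 6, 45 and 4 at 30°C and 2, 3 and 3 at 8°C in *Jmjd1a* HY/HY mice and 5, 1 and 5 and 14, 116 and 85 in *Jmjd1a* +/+ mice.

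Among regulators and respiratory chain subunits it was -0.71 for *Gabpa*, -1.54 for *Ndufs8*, -1.43 for *Ndufb6*, -1.29 for *Ndufc1*, -1.43 for *Sdhb*, -1.32 for *Sdhd*, -1.73 for *Cyc1*, -1.27 for *Uqcrq*, -1.97 for *Cox5a*, -1.29 for *Atp5j2*, -1.07 for *Atp5md* and -1.25 for *Atp5d*. In the tricarboxylic acid cycle it was -1.92 for *Suclg1* and -1.44 for *Sucla2*, in glycolysis -1.34 for *Pgam1*, and in mitochondrial translation -0.59 for *Mrps23*. *S100b*, which adipocytes and Schwann cells express, differed by -3.28.

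The negative differences furthest from 0 outside the lists were those of *Acot12* (-4.43), *Atp4b* (-4.39) and *Myl3* (-4.37). The positive ones were those of *Rpl31-ps13* (4.97), *Cdhr1* (3.0), *Cbs* (1.87), *Flvcr2* (1.80) and *Folr1* (1.60). *Rpl31-ps13* is a pseudogene of a ribosomal protein, and its counts in *Jmjd1a* HY/HY mice were 7, 5 and 4 at 30°C and 37, 41 and 3 at 8°C.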

How the results depend on the processing

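The number of genes called higher, 30, was 216 with DESeq2, 101 without a filter on low counts, 85 at an adjusted p under 0.1 and 0 in the 6 *Jmjd1a* HY/HY libraries alone, and the number called lower, 11, was 94, 49, 36 and 0. Without replicate 3 at 30°C in the 5 remaining *Jmjd1a* HY/HY libraries the numbers were 246 and 115. With library totals in place of TMM they were 37 and 18. With the replicate block they were 128 and 32, and with the block in the 6 *Jmjd1a* HY/HY libraries alone, an alternative chosen after seeing the data, 10 and 1. Leaving out each library in turn gave 7 to 461 higher and 0 to 203 lower, and 67 to 652 differences between genotypes. Beside replicate 3 at 30°C, leaving out replicate 1 or 2 at 30°C (8 and 4 each), any mouse at 8°C (7 and 0, 10 and 1, 18 and 3), wild-type replicate 3 at 30°C (47 and 17) or any wild-type mouse at 8°C (12 to 15, and 4) moved a count of calls by more than 1.5 times. The 370 differences became 84, 120 and 559 without wild-type replicates 1, 2 and 3 at 30°C, 652 and 186 without *Jmjd1a* HY/HY replicates 1 and 2 at 30°C, 120, 104 and 83 without the wild-type mice at 8°C and 67, 144 and 79 without the *Jmjd1a* HY/HY mice at 8°C. The 370 differences were 809 with DESeq2 and 229 with library totals, and 526 with the block. Counts of both strands, a robust spread and leaving out mitochondrial DNA kept the 3 numbers within 1.5 times. The causes were not tested. Of the 41 genes called, all had the same sign in each of these fits, and 34 kept an adjusted p under 0.05 with library totals, 41 with the block, 40 of 40 with DESeq2 and 0 in the 6 libraries alone. The depth limits what can be said of *Fabp3* and *Ucp1* at 30°C, where few counts set the fold.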

Other observations

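Interferon response, clock, cholesterol, creatine and calcium cycling, macrophage, endothelial, Schwann cell and erythrocyte genes, adipocyte progenitors, ovarian hormone response and the enzymes that write or erase H3K9 methylation had median log2 fold changes of -0.35 (clock) to 0.12 (macrophage). Without replicate 3 at 30°C these medians ran from -0.53 for ovarian hormone response (-0.20 with it) to 0.68 for erythrocyte markers (-0.08 with it), and the ovarian hormone list had 1 gene higher, *Fgf10*, and 1 lower, *Stc2*. In stress and unfolded protein responses 1 of 24 genes fell, *Cryab*, against 0.0665% of all genes. Without replicate 3 at 30°C *Asns*, *Psat1* and *Dnajb9* rose. With the replicate block 3 of the 24 genes rose, and DESeq2 called 2 higher and 1 lower. Of all genes, 2.72% rose without replicate 3, 0.774% rose with the block and 1.31% were called higher by DESeq2. *Dnajb9*, a chaperone of the endoplasmic reticulum, was at 25.6, 26.7 and 43.5 CPM at 30°C and at 67.7, 58.5 and 66.4 CPM at 8°C, with no overlap (log2 fold change 1.01, edgeR adjusted p = 0.0745, and 1.30 with adjusted p = 0.00467 without replicate 3).

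Skeletal muscle markers summed to 62.7 to 96.5 CPM in the 6 libraries, with a median log2 fold change of 0.10. In *Jmjd1a* +/+ mice 1 library at 30°C had a sum of 1830 CPM. In that genotype 8 of the 11 markers tested fell with cold, against 6.93% of all genes. The part of that library in the wild-type falls was not tested.

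*Agt*, angiotensinogen, was at 6.66, 2.75 and 1.66 CPM at 30°C and at 24.5, 14.3 and 31.5 CPM at 8°C (log2 fold change 2.65, edgeR adjusted p = 0.114), and *Areg*, the growth factor amphiregulin, at 32, 69.4 and 72.8 CPM and at 14.5, 14.3 and 5.11 CPM (log2 fold change -2.35, edgeR adjusted p = 0.107). Neither gene had an overlap between the temperatures, and neither passed the test.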
